A study of Mus musculus with 10 samples.

Results

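The genes described here are 10 members of the transcription and RNA-binding network that maintains pluripotency: Sox2, Klf2, Klf4, Klf5, Esrrb, Tbx3, Tfcp2l1, Lin28a, Lin28b and Mycn, out of 21900 protein-coding genes in the RefSeq gene table. They were chosen by name and function, and each was represented by the cytosines that had 5 or more reads in each library and lay inside the gene or within 2 kb of either end (mm10). All 10 genes were found, with 2660 cytosines in 1769 CpGs, out of 6745376 cytosines in 4489220 CpGs in the whole table. The assay was RRBS, reduced representation bisulfite sequencing, in which restriction fragments are treated with bisulfite so that unmethylated cytosines are read as T and methylated ones as C. The cells were spermatogonia from pup testes at postnatal day 6, sorted from LT-11B6 mice, which carry an Id4-eGfp transgene on a C57BL/6 background, and no treatment was given. Both fractions were EGFP-positive, so both depend on the Id4 reporter, and differed in antibody staining for the surface protein TSPAN8: TSPAN8-high cells were the most strongly stained and TSPAN8-low cells the most weakly stained of the positive cells. Per the labels, the material of 5 sorts was used for each fraction, which gave 1 TSPAN8-high library and 1 TSPAN8-low library. The series lists 8 further chromatin and input samples, which were not analysed here.

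With 1 library per fraction there is no replicate check, so each test below compares 2 libraries and not the 2 kinds of cell, and intervals cover counting error only. Over the 10 genes the libraries held 32680 reads in TSPAN8-high, against 33777 in TSPAN8-low, summed over cytosines, and the median cytosine had 10 reads in both. The median over the whole table was also 10 in both. A level is the share of methylated reads, pooled over the cytosines of a region, and a difference is the TSPAN8-high level minus the TSPAN8-low level in percentage points. Reads are counted per cytosine, so 1 sequenced fragment can enter at several CpGs, and p-values over pooled reads are too small for that reason. A level between the extremes in sorted cells does not tell partial methylation of every cell apart from a mixture of methylated and unmethylated cells. RNA was not measured in the table, so the cell type could not be checked by expression. The promoters of 8 germ cell genes, several of which are known to be methylated in somatic tissues, were below 20% methylated in both libraries in 8 of 8 cases, as were 84.3% of all promoters tested, so they say little about the identity of the cells. Among them Dazl, an RNA-binding protein of germ cells, had 2.48% in TSPAN8-high, against 1.40% in TSPAN8-low, and Slc25a31, a mitochondrial carrier of the male germ line, had 2.24% in TSPAN8-high, against 2.96% in TSPAN8-low.

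Pluripotent cells hold their state through transcription factors that bind one another's genes. SOX2 acts with OCT4 at shared enhancers, the Krüppel-like factors KLF2, KLF4 and KLF5 and the factors ESRRB, TBX3 and TFCP2L1 carry the signals of the naive state, and MYCN drives growth and proliferation. LIN28A and LIN28B are RNA-binding proteins that block the maturation of let-7 microRNAs, and LIN28A is a known marker of undifferentiated spermatogonia in the mouse. In mammals CpG-rich promoters are mostly free of methylation in the germ line and the soma, whereas most CpGs elsewhere in the genome are methylated. Promoter methylation is generally associated with silencing, but an unmethylated promoter need not be active.

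The sequences upstream of the starts differ in how many CpGs they offer, and 5 of them are shown because they range from CpG-dense starts (Klf2, Tfcp2l1) to the CpG-poor starts of Lin28b and Esrrb, whose levels are set apart below. Each is the 250 bases before a transcript start in RefSeq (GRCm38.p6), written 5′ to 3′ on the gene's strand with every CG in capitals. They lie at chr8:72318812-72319061, plus strand (Klf2), chr1:118627695-118627944, plus strand (Tfcp2l1), chr10:45470202-45470451, minus strand (Lin28b), and chr12:86360867-86361116 and chr12:86421394-86421643, plus strand (the upstream and the internal start of Esrrb).
Klf2: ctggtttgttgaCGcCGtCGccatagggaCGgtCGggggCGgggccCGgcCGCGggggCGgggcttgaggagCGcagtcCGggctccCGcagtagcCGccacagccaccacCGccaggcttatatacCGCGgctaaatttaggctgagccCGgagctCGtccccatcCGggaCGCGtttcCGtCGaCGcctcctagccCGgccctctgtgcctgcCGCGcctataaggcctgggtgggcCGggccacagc
Tfcp2l1: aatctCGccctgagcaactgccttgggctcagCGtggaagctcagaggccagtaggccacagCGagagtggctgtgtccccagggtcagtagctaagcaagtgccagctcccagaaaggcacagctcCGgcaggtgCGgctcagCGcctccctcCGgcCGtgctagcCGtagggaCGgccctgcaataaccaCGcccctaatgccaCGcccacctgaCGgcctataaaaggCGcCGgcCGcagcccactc
Lin28b: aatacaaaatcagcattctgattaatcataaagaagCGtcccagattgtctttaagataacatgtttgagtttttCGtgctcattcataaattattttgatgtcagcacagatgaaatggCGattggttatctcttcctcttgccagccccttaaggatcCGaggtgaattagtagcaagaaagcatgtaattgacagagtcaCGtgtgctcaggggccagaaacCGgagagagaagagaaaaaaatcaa
Esrrb, upstream start: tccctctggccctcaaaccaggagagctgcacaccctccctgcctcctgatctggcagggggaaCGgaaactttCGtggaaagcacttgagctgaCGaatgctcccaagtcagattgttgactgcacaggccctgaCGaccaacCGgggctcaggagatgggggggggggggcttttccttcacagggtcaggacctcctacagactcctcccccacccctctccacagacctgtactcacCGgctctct
Esrrb, internal start: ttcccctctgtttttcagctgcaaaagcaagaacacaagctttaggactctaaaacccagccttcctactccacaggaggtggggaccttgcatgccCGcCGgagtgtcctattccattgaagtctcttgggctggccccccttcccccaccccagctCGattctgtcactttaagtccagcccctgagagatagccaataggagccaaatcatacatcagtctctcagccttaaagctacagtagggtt
The stretch of Klf2 holds 29 CGs, of which 28 were measured, and that of Tfcp2l1 holds 16, of which 13 were measured. In the Klf2 stretch 6 of 470 reads were methylated in TSPAN8-high, against 0 of 498 in TSPAN8-low, where a count of 0 allows up to 0.602%. In the Tfcp2l1 stretch 0 of 226 reads were methylated in TSPAN8-high, which allows up to 1.33%, and 0 of 216 in TSPAN8-low, which allows up to 1.39%. The Lin28b stretch has 6 CGs, all measured, with 3.75% of 80 reads methylated in TSPAN8-high and 13.2% of 114 reads in TSPAN8-low. Esrrb has 6 CGs before its upstream start, none of them measured, and 3 before its internal start, of which 1 was measured. The median over 21263 protein-coding promoters of the same length was 10 CGs.

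Short motifs were counted in the same 250 bases on both strands, overlapping matches included, and are given as letter matches only. The CACGTG box, which contains a CG, was in Klf4 and Lin28b among the 8 genes with a listed start, and in 6.63% of all promoters. The GC-rich motif CCNCNCCC, like the sites that KLF proteins bind, occurred 9 times each in Sox2 and Klf4, 8 times before the upstream start of Esrrb, and not in Lin28b, and 52.9% of all promoters held at least 1. CCGG, the MspI site used to cut the DNA, which also contains a CG, was present 6 times in Klf2 and not in Lin28a, against 55.7% of all promoters with at least 1. ATTGTT was found only before the upstream start of Esrrb (8.22% of all promoters), and TCAAGGTCA in none of the stretches (0.320% of all promoters).

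The promoters of these genes were nearly free of methylation in both libraries. A promoter was taken as 1 kb either side of the outermost listed transcript start, or, for Klf5 and Tbx3, which have no listed start, of the gene end with more CpGs. The start of Sox2 (chr3:34649995), an HMG-box factor, had 1 methylated read of 591 in TSPAN8-high, against 0 of 648 in TSPAN8-low, where a count of 0 allows up to 0.463%. Klf2 (chr8:72319062) had 0.819% of 1221 reads methylated in TSPAN8-high, against 0.236% of 1273 in TSPAN8-low, and Klf4 (chr4:55532475) had 0.500% of 600 in TSPAN8-high, against 1.26% of 635 in TSPAN8-low. Both zinc finger genes thus lay near 0 with intervals that overlapped between the libraries. Klf5 (chr14:99298691) had 2.27% of 1013 reads in TSPAN8-high, against 1.37% of 1021 in TSPAN8-low. The T-box gene Tbx3 (chr5:119670534) had 0.102% of 977 reads in TSPAN8-high, against 0.372% of 1074 in TSPAN8-low. The Klf5 intervals overlapped between the libraries, and Tbx3 had the lowest TSPAN8-high level of the 10 genes. Tfcp2l1 (chr1:118627945), a grainyhead-like factor, had 2.14% of 747 reads in TSPAN8-high, against 2.69% of 706 in TSPAN8-low. Mycn (chr12:12941836), a bHLH factor of the MYC family, had 0.999% of 901 reads in TSPAN8-high, against 0.711% of 703 in TSPAN8-low. Lin28a (chr4:134018816) had 1.73% of 751 reads in TSPAN8-high, against 0.382% of 786 in TSPAN8-low. Of these 3 genes, Lin28a was higher in TSPAN8-high by the most, and the intervals of all 3 overlapped between the libraries.

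Lin28b and Esrrb departed from this pattern at the starts used. Lin28b (chr10:45470201) had 10% of 260 reads methylated in TSPAN8-high (95% exact interval 6.64 to 14.3%) and 18.1% of 309 in TSPAN8-low (14.0 to 22.9%). Esrrb (chr12:86361117) was methylated around its upstream start, at 58 of 62 reads, or 93.5%, in TSPAN8-high, against 61 of 64, or 95.3%, in TSPAN8-low, over 4 CpGs. Each of these genes also had a place with little methylation. The internal Esrrb start (chr12:86421644) had 1.62% of 431 reads methylated in TSPAN8-high, against 0.198% of 504 in TSPAN8-low over 34 CpGs. The far end of the Lin28b gene (chr10:45486314), at its 5′ side, had 1.36% of 1033 reads in TSPAN8-high, against 0.780% of 1025 in TSPAN8-low over 62 CpGs. Ordered by TSPAN8-high level, the promoters ran Tbx3, Sox2, Klf4, Klf2, Mycn, Lin28a, Tfcp2l1, Klf5, Lin28b and Esrrb. In that library the exact intervals of neighbours overlapped at every step except from Klf5 to Lin28b and from Lin28b to Esrrb.

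**Figure D1:**
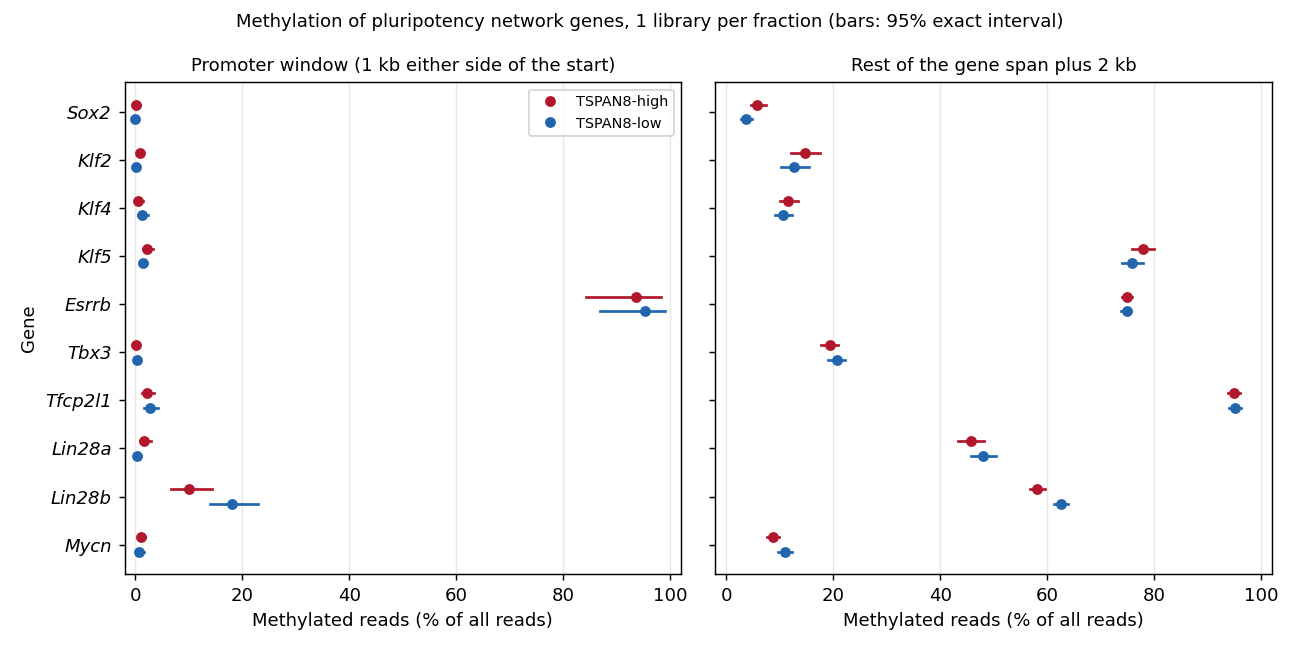
Methylated reads (percent of all reads, x axis) at the promoter window (left panel) and in the rest of the gene span plus 2 kb (right panel) for each gene (y axis). Points are the TSPAN8-high library (red, upper) and the TSPAN8-low library (blue, lower), and bars are 95% exact intervals. The promoters lie below 5% in both libraries except Lin28b and Esrrb, while the rest of the span ranges from 5.86% in TSPAN8-high, against 3.71% in TSPAN8-low at Sox2 to 94.98% in TSPAN8-high, against 95.1% in TSPAN8-low at Tfcp2l1.

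Of the 10 promoters 9 had the 5 CpGs needed for a test, Esrrb being the exception. All 9 were below 20% in both libraries, against 84.3% of the 15807 promoters tested, and 8 of 9 were below 5% in both, against 69.2%. These shares describe genes chosen by function and have no test. None of the 9 was called different, where a call needed an adjusted p below 0.05 by two-sided Fisher's exact test with Benjamini-Hochberg adjustment over all promoters and a difference of at least 10 points, and 0.601% of all promoters were called. At an unadjusted p below 0.05 the count was 2 of 9, at Lin28b and Lin28a, against 17.0% of all promoters tested. The Lin28b promoter differed by -8.12 points (95% Newcombe interval -13.7 to -2.36), with an adjusted p of 0.0931 by Fisher's exact test. Lin28a differed by 1.35 points (0.323 to 2.58), with an adjusted p of 0.132 by the same exact test. The median difference was 0.169 points over the 9 promoters and -0.00822 points over all promoters tested. At the far end of the Lin28b gene the difference was 0.575 points (-0.355 to 1.56).

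Around the starts the unmethylated stretches were longest at Sox2, Mycn and Tbx3 and shortest at Tfcp2l1 and the listed Lin28b start. A stretch was followed outward from the start until 3 successive CpGs together exceeded 50% methylation. For Sox2 it spanned 6.74 kb in TSPAN8-high, against 6.73 kb in TSPAN8-low, for Mycn 5.18 kb in both, for Tbx3 5.10 kb in both and for Klf4 4.41 kb in both. Lin28a had 3.49 kb in both and Klf2 2.38 kb in both, and Klf5 had 2.75 kb in TSPAN8-high, against 2.77 kb in TSPAN8-low. Tfcp2l1 had 1.12 kb in both libraries. Widths thus differed far more between genes than between the libraries. At the internal Esrrb start the stretch measured 2.45 kb with 66 CpGs in both libraries, and at the upstream start no stretch was found in either. Lin28b had 1.59 kb in TSPAN8-high, against 1.29 kb in TSPAN8-low at its listed start, but 3.34 kb in TSPAN8-high, against 3.26 kb in TSPAN8-low at its far end. The ends of the stretches fell on the same CpGs in both libraries for Mycn, Tbx3, Klf4, Lin28a, Klf2, Tfcp2l1 and the internal Esrrb start.

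**Figure D2:**
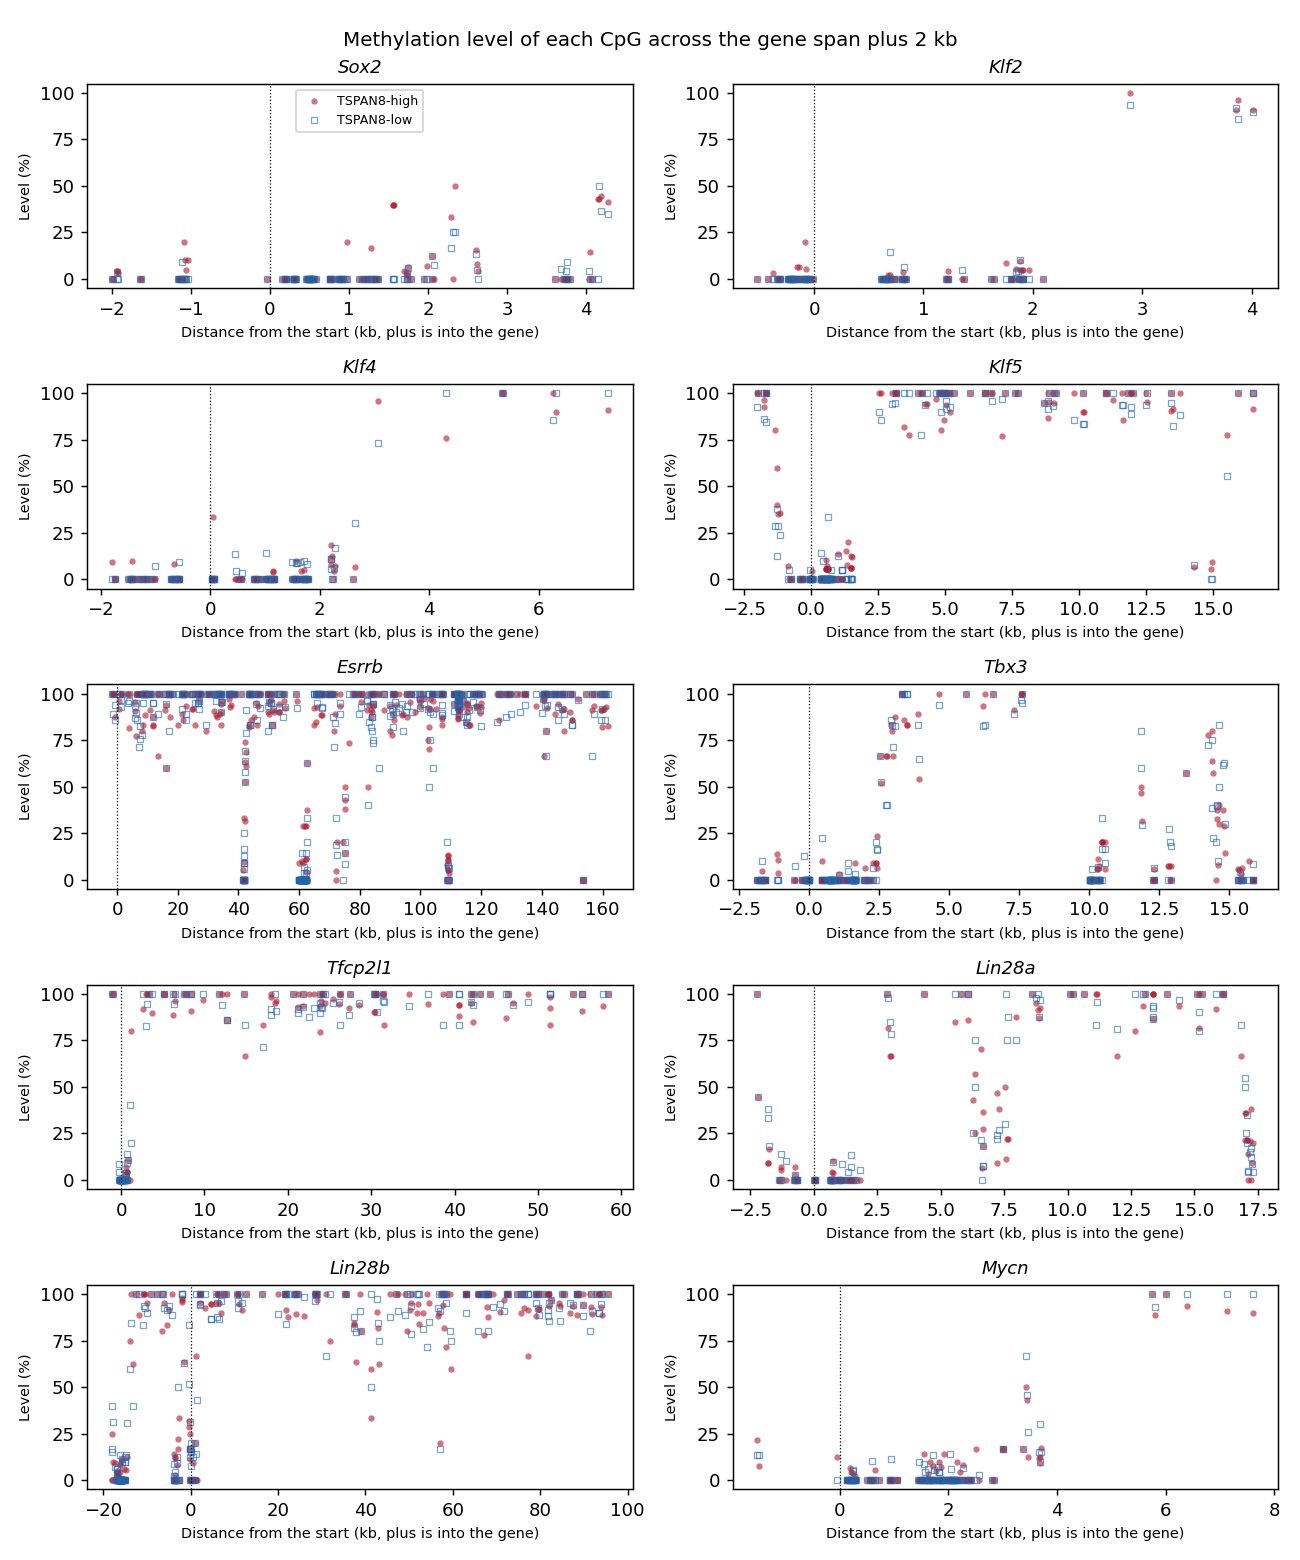
Methylation level of each CpG (percent, y axis) against distance from the start (kb, x axis, positive into the gene) in TSPAN8-high (filled red circles) and TSPAN8-low (open blue squares), 1 panel per gene, with the start as a dotted line. Low levels surround the start in 9 genes, whereas the low CpGs of Esrrb lie inside the gene, among them those around its internal start and at 41.4, 72.4 and 109 kb.

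Away from the promoter window the genes fell into a low, a middle and a high group. Sox2 had 5.86% in TSPAN8-high, against 3.71% in TSPAN8-low in the rest of its span plus 2 kb, and Mycn had 8.72% in TSPAN8-high, against 10.96% in TSPAN8-low. Klf4 had 11.6% in TSPAN8-high, against 10.7% in TSPAN8-low, and Klf2 had 14.7% in TSPAN8-high, against 12.7% in TSPAN8-low. These 4 compact genes were below 20% in both libraries, against 4.72% of the 19002 genes tested. At each of them the unmethylated stretch around the start reached past the promoter window, so these levels include part of that stretch. Tbx3 was next, at 19.3% in TSPAN8-high, against 20.6% in TSPAN8-low. The Lin28 genes were intermediate, Lin28a at 45.8% in TSPAN8-high, against 48.1% in TSPAN8-low and Lin28b at 58.2% in TSPAN8-high, against 62.6% in TSPAN8-low. The Lin28b value includes the unmethylated stretch at its far end (1.82% of 1322 reads in TSPAN8-high, 2.76% of 1266 in TSPAN8-low). Since 25 of the 37 Lin28b tiles were above 80% in both libraries, its level averages unlike parts of the gene. Esrrb had 74.9% in TSPAN8-high, against 74.8% in TSPAN8-low, Klf5 had 77.9% in TSPAN8-high, against 75.9% in TSPAN8-low, and Tfcp2l1 had 94.98% in TSPAN8-high, against 95.1% in TSPAN8-low. The median was 32.5% in TSPAN8-high, against 34.4% in TSPAN8-low over the 10 genes, whereas all genes tested had medians of 87.6% in TSPAN8-high and of 87.9% in TSPAN8-low. The flanks weigh most in short genes, and the part of gene length in these medians was not tested. The lncRNA gene Sox2ot overlaps Sox2, Tbx3os1 overlaps Tbx3 and Gm40483 overlaps the upstream end of Esrrb, so their CpGs are shared. Outside the genes themselves, the lncRNA gene Gm12506 (from chr4:55532710) reaches into the promoter window and flank of Klf4. Tbx3os2 (from chr5:119685088) reaches into the flank of Tbx3.

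Over the whole span plus 2 kb no gene of the 10 was called different by the same Fisher's exact test and minimum difference, where 1.15% of 19763 genes were called. At an unadjusted p below 0.05 there were 4 of 10, Lin28b, Mycn, Sox2 and Klf2, against 30.1% of all genes tested. Adjusted p-values below 0.05 at any size were found for 2 of 10, both lower in TSPAN8-high, where 12.9% of all genes were lower and 18.1% differed in either direction. Lin28b had 2653 methylated reads of 4777, or 55.5%, in TSPAN8-high, against 3028 of 5057, or 59.9%, in TSPAN8-low. That is a difference of -4.34 points (95% interval -6.29 to -2.39), with an adjusted p of 0.000354 by Fisher's exact test. On the plus strand alone the adjusted p was 0.146, at -3.01 points, and at 20 reads or more it was 0.286, at -4.92 points (Fisher's exact test), so Lin28b then no longer passed. Mycn had 6.53% in TSPAN8-high, against 8.35% in TSPAN8-low, a difference of -1.82 points (-3.18 to -0.483), with an adjusted p of 0.0468 by Fisher's exact test. When each cytosine had equal weight, in place of each read, the difference was -1.16 points at Lin28b and -0.571 points at Mycn.

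The remaining spans differed by smaller or less certain amounts. Sox2 had 3.90% in TSPAN8-high, against 2.54% in TSPAN8-low, 1.36 points apart with an adjusted p of 0.0859 by Fisher's exact test. Klf2 had 5.88% in TSPAN8-high, against 4.47% in TSPAN8-low, 1.41 points apart with an adjusted p of 0.165 by Fisher's exact test. For Klf4 the difference was 0.393 points (-1.25 to 2.05), for Klf5 -0.0107 points (-2.64 to 2.62) and for Esrrb 0.0838 points (-1.23 to 1.39). For Tbx3 it was -0.684 points (-2.33 to 0.960), for Tfcp2l1 0.400 points (-2.35 to 3.15) and for Lin28a -2.08 points (-4.68 to 0.534). The intervals of these last 6 genes include 0. The median over the 10 genes was 0.0365 points, against -0.520 points over all genes tested.

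**Figure D3:**
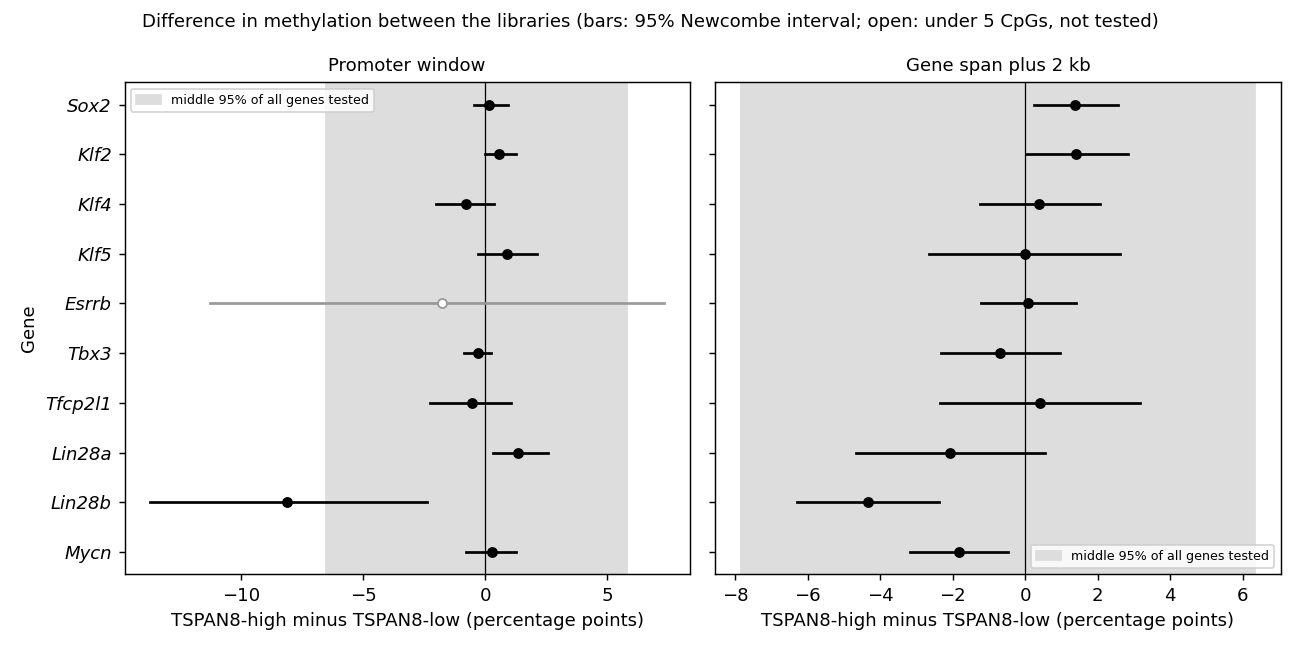
Difference in methylation, TSPAN8-high minus TSPAN8-low (percentage points, x axis), at the promoter window (left) and over the gene span plus 2 kb (right) for each gene (y axis), with 95% Newcombe intervals as bars and the middle 95% of all genes tested as a grey band. Lin28b at its listed start, at -8.12 points, is the only point outside the band, and the open point marks Esrrb, which had too few CpGs for a test.

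Fixed tiles of 1 kb located the levels within each gene. Of 351 tiles touched by the 10 genes, 186 had at least 3 CpGs and were tested. Among these 47, or 25.3%, were below 20% in both libraries, against 9.17% of the 584853 tiles of the table, and 116, or 62.4%, were above 80% in both, against 79.5%. The other 23 lay between or differed across these limits. Tiles at least 10 points apart numbered 16, or 8.60%, close to the 8.05% of the whole table, and 20, or 10.8%, had an unadjusted p below 0.05, against 8.60%. By Fisher's exact test adjusted over all tiles 3 had an adjusted p below 0.05, where 0.359% of all tiles did, and 1 of them, in Esrrb, was also at least 10 points apart, where 0.269% of all tiles were called. The call is a single tile, or 0.538% of the 186.

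Several genes held unmethylated or intermediate tiles away from the start. Inside Esrrb, an orphan nuclear receptor gene, the tile 41.4 kb from the upstream start had 1.22% in TSPAN8-high, against 1.52% in TSPAN8-low, and the tile at 109 kb had 6.98% in TSPAN8-high, against 3.39% in TSPAN8-low. The Esrrb tile at 72.4 kb had 8.11% in TSPAN8-high, against 17.6% in TSPAN8-low, and the tile at 75.4 kb had 36 of 99 reads methylated in TSPAN8-high, against 25 of 125 reads in TSPAN8-low. These islands of low methylation stand in a gene where 58 of 67 tiles were above 80% in both libraries. Within Tbx3 the tile 9.97 kb into the gene had 1.94% in TSPAN8-high, against 1.41% in TSPAN8-low. Lin28a had intermediate tiles at 6.32 kb, with 45.8% in TSPAN8-high, against 32.8% in TSPAN8-low, and at 7.32 kb, with 29.2% in TSPAN8-high, against 35.8% in TSPAN8-low. A further intermediate tile lay 17.3 kb from the Lin28a start, past its 3′ end, with 23.6% in TSPAN8-high, against 21.4% in TSPAN8-low. Exons and introns were not given in the annotation used here, so these tiles are placed by distance only.

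**Figure D4:**
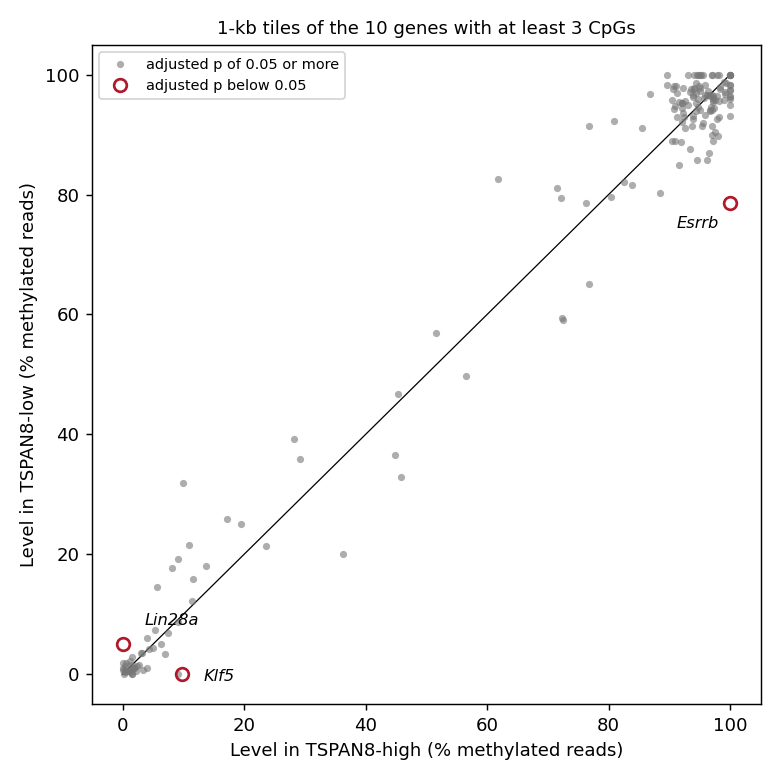
Level in TSPAN8-low (percent methylated reads, y axis) against level in TSPAN8-high (x axis) for the 186 tiles of 1 kb with at least 3 CpGs in the 10 genes, with the line of equal levels. Red rings mark the 3 tiles with an adjusted p below 0.05, in Esrrb, Klf5 and Lin28a. Most tiles sit at the ends of the line, 47 below 20% and 116 above 80% in both libraries.

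The called tile lies 7.38 kb into Esrrb, at chr12:86368001-86369000, in the methylated region between its starts. There 65 of 65 reads were methylated in TSPAN8-high, against 66 of 84, or 78.6%, in TSPAN8-low. The tile was thus fully methylated in TSPAN8-high, 21.4 points higher (95% interval 12.1 to 31.3), with an adjusted p of 0.0123 by Fisher's exact test. It holds 4 CpGs, of which 1 carries 35 of the 65 reads in TSPAN8-high, against 49 of the 84 in TSPAN8-low. That CpG had 75.5% in TSPAN8-low, 2 others had 71.4% and 82.6%, and the last was fully methylated there too, at 5 of 5 reads. With 1 CpG per 100 bp, so that fewer CpGs share a read, the difference was 23.0 points and the adjusted p 0.120 by Fisher's exact test, so the call was lost. On 1 strand alone it was lost too, at 23.3 points on plus (adjusted p 0.202, Fisher's exact test) and 19.5 points on minus (adjusted p 0.511, Fisher's exact test).

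Next to the Klf5 start, at chr14:99300001-99301000 and 1.81 kb from the gene end used as its start, 13 of 133 reads, or 9.77%, were methylated in TSPAN8-high, against 0 of 167 in TSPAN8-low, where a count of 0 allows up to 1.80%. The adjusted p was 0.0133 by Fisher's exact test and the difference of 9.77 points just under the minimum for a call. All 8 CpGs had at least 1 methylated read in TSPAN8-high, against none in TSPAN8-low. Of these, 4 shared the same depths of 17 reads in TSPAN8-high, against 20 in TSPAN8-low and may lie on the same reads. With 1 CpG per 100 bp the adjusted p was 0.492 by Fisher's exact test, at 11.8 points. On the minus strand alone the difference was 1.79 points, against 15.6 points on the plus strand.

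At Lin28a the tile chr4:134017001-134018000, 1.32 kb into the gene and inside its unmethylated stretch, had 0 of 339 reads methylated in TSPAN8-high, which allows up to 0.885%, and 16 of 312, or 5.13%, in TSPAN8-low. The difference was -5.13 points (-8.17 to -2.88), with an adjusted p of 0.00682 by Fisher's exact test. The methylated reads of TSPAN8-low fell on 4 of the 14 CpGs, with 13.3% at the highest, and none of the 14 had a methylated read in TSPAN8-high. With 1 CpG per 100 bp the adjusted p was 0.125 by Fisher's exact test, at -6.98 points. It was 0.609 on the plus strand, at -4.58 points, and 0.0928 on the minus strand, at -5.52 points (Fisher's exact test). The Lin28a promoter window, which overlaps this tile in part, had the opposite sign, at 1.35 points, so the gene gave no single direction.

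The Lin28b tile at its listed start, chr10:45470001-45471000, had 25 of 230 reads methylated, or 10.9%, in TSPAN8-high, against 54 of 250, or 21.6%, in TSPAN8-low. The difference was -10.7 points (-17.2 to -4.13), with an adjusted p of 0.165 by Fisher's exact test, so it was not called. Of its 14 CpGs those farthest upstream had the highest levels in both libraries, and the last CpG had 4 of 14 reads methylated in TSPAN8-high, against 10 of 12 in TSPAN8-low. Of the 37 Lin28b tiles tested 6, or 16.2%, were at least 10 points apart, against 8.05% of the tiles of the whole table. Each of the 6 was lower in TSPAN8-high. By Fisher's exact test 5, or 13.5%, had an unadjusted p below 0.05, against 8.60% of the whole table, and 0 had an adjusted p below 0.05. The excess of these shares over the whole table was not tested. Over all 37, however, 19 were higher in TSPAN8-high and 17 lower.

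**Figure D5:**
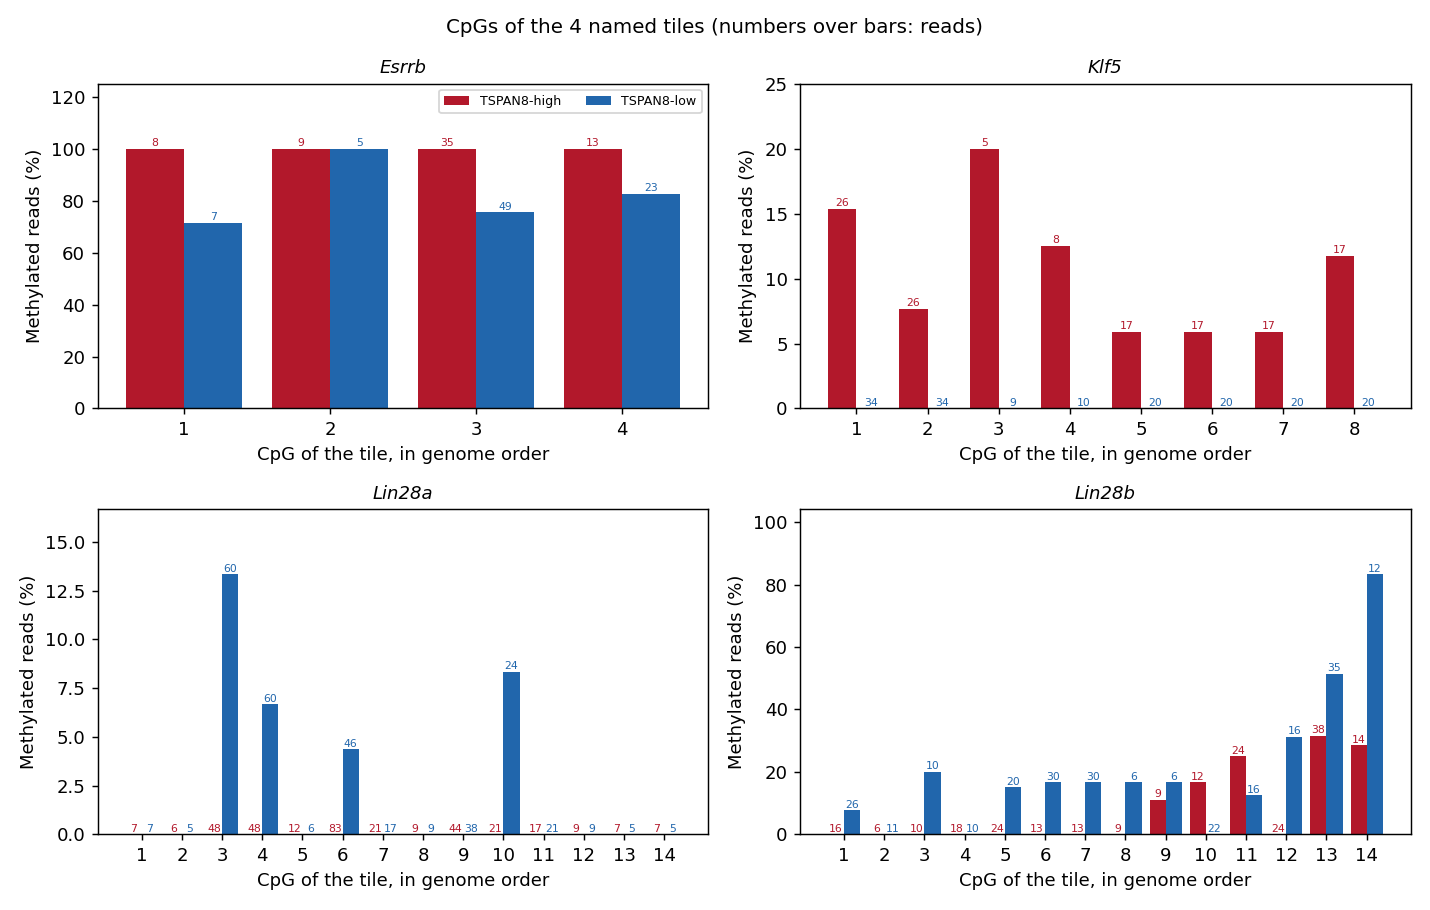
Methylated reads (percent, y axis) at each CpG, in genome order (x axis), of the 4 tiles named in the text, in TSPAN8-high (red, left bar) and TSPAN8-low (blue, right bar), with the number of reads over each bar. The y axes differ between panels. In Esrrb all 4 CpGs reach 100% in TSPAN8-high, and in Klf5 none of 8 CpGs has a methylated read in TSPAN8-low.

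At single cytosines 0 of 2660 were called by Fisher's exact test with adjustment over all cytosines and a minimum of 20 points, where 0.00111% of the table was called. At an unadjusted p below 0.05 there were 24, or 0.902%, against 1.46% of all cytosines. The lowest p-values belonged to a cytosine of Klf4 (chr4:55529416, plus strand), with 37 of 37 reads methylated in TSPAN8-high, against 22 of 32 in TSPAN8-low, and one of Lin28a (chr4:134011244, plus strand), with 1 of 9 reads in TSPAN8-high, against 8 of 8 in TSPAN8-low. Both were chosen after their values were seen. The adjusted p by Fisher's exact test was 0.731 at the Klf4 cytosine and 0.995 at the Lin28a cytosine. Depth limits this test, because the Lin28a cytosine did not pass even at -88.9 points. At the median depth of 10 reads, the lack of calls therefore says little about single cytosines. The authors' deposited table classes each cytosine, and 24 of the 2660 were classed as anything but insignificant, or 0.902%, against 1.45% of the table. These classes rest on the same reads, and each gene had the same count as at an unadjusted p below 0.05. They are therefore not separate evidence. In the authors' deposited table these were 6 of 181 cytosines, or 3.31%, at Lin28a and 6 of 416, or 1.44%, at Lin28b. The Lin28b share is near that of the table. Sox2 held 0 of 158, Klf2 0 of 136 and Tbx3 0 of 282.

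The promoters of related genes are given beside the shares over all promoters tested, of which 0.601% were called, 17.0% had an unadjusted p below 0.05 and 84.3% were below 20% in both libraries. In a list of 25 further pluripotency network genes 24 promoters were tested and 21 were below 20% in both libraries. The exceptions were Lefty1, Lefty2 and Gdf3, which encode secreted ligands of the TGF-beta family. These exceptions have no listed start, so their windows lay at the gene end with more CpGs, which may not be the promoter. None of the 24 was called by Fisher's exact test, and 3 had an unadjusted p below 0.05. The best covered were Smad1, a BMP signal transducer, with 1.04% in TSPAN8-high, against 0.815% in TSPAN8-low, and Stat3, the effector of LIF signalling, with 0.381% in TSPAN8-high, against 0.977% in TSPAN8-low. The median difference of the list was -0.00197 points. Tcl1, an AKT co-activator singled out after its values were seen, was the only one with an adjusted p below 0.05 by Fisher's exact test. It had 27 of 569 reads methylated in TSPAN8-high, against 1 of 504 in TSPAN8-low, a difference under the 10 points needed for a call.

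Among 25 paralogs of the 10 genes, 25 promoters were tested, 0 were called by Fisher's exact test, 7 had an unadjusted p below 0.05 and 22 were below 20% in both libraries. Klf12, Klf17 and Tbx4 were the exceptions. The start used for Klf12 (chr14:100149796, minus strand) lay well inside the gene (99866181 to 100285891), with 6 CpGs in its window. That used for Tbx4 (chr11:85896765, plus strand) also lay inside its gene (85886367 to 85916097). Whether these windows stand for the main promoters of Klf12 and Tbx4 was not tested. The shares below 20% in both lists are near that over all promoters. The best covered were Klf16, with 0.458% in TSPAN8-high, against 0.769% in TSPAN8-low, and Klf14, with 0.381% in TSPAN8-high, against 0.969% in TSPAN8-low. The median difference of the paralogs was 0.0281 points.

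The let-7 genes, whose RNAs LIN28A and LIN28B bind, were sparsely measured, with 3 of 11 hairpins tested in windows of 1 kb either side. None of the 3 was called by Fisher's exact test and 0 had an unadjusted p below 0.05, where 0.717% of 558 miRNA hairpins were called. Mirlet7i had 0.938% in TSPAN8-high, against 0.564% in TSPAN8-low, and Mirlet7e had 2.04% in TSPAN8-high, against 2.47% in TSPAN8-low. Mirlet7a-1 was methylated, at 98.2% in TSPAN8-high, against 98.1% in TSPAN8-low.

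The genes closest to the median levels of the 9 members with a tested promoter were sought among 15472 others. Distance was taken over 4 levels, promoter and rest of the span in each library. The medians of these 9 were 0.999% in TSPAN8-high and 0.711% in TSPAN8-low at the promoter. In the rest of the span they were 19.3% in TSPAN8-high and 20.6% in TSPAN8-low, though single members ranged widely there. Pabpc4l was 0.707 points away, Mmp23 0.930 points and Robo3 0.959 points. Their promoters had between 0.876% and 1.15% in TSPAN8-high and between 0.584% and 0.926% in TSPAN8-low, with 18.6% to 20.05% in TSPAN8-high and 19.7% to 21.2% in TSPAN8-low in the rest of the span.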

How the data were processed

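DNA methylation was measured by RRBS in 1 library of TSPAN8-high and 1 of TSPAN8-low ID4-EGFP spermatogonia, cut with BfaI, MseI and MspI per the labels' protocols. The authors deposited 1 table of cytosines with a methylation level as a fraction, rounded to 2 decimals, and coverage as read counts, with no coverage below 5. At 93.6% of cytosines the deposited p-value matched, within 0.001, that of a two-sided Fisher's exact test on the reads. The deposited difference column (unit other, a fraction) was not used. Named with no role in the submitters' processing notes are Bowtie, SICER, mm9 and mm10, and which tool aligned the bisulfite reads is not given in the sources used here. Of the listed cytosines inside RefSeq GRCm38.p6 promoter sequences, 231700 of 231700 lay on a CG, so coordinates are mm10.

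The number of methylated reads is the level multiplied by coverage and rounded. Reads pooled over cytosines were tested between libraries with Fisher's exact test (two-sided) and Benjamini-Hochberg adjustment over all gene spans or promoters (at least 5 CpGs), all 1-kb tiles (at least 3 CpGs), or all cytosines. Calls needed an adjusted p below 0.05 and at least 10 points (20 for cytosines). A read counts once at every CpG it covers, and RRBS reads carry no molecular identifiers, so p-values are too small. Single levels have exact Clopper-Pearson intervals at 95%, differences Newcombe intervals, and a count of 0 a limit of 3 counts. Transcript starts were listed for 8 of the 10 genes and 17492 of 21900 protein-coding genes. For all others the gene end with more CpGs was used, which may not be the 5′ end. Named were all 10 genes, the tiles of lowest p (2 in each direction) and the 2 best-covered genes of each further list. The genes, lists and tests were chosen with earlier results of these data known. The promoter test was checked on simulated reads drawn independently of one another. That check does not cover reads counted at several CpGs. Alternatives are given in the closing section. Python 3.11.15, numpy 2.4.6, pandas 2.3.3, scipy 1.17.1 and numba 0.67.0 were used, with matplotlib 3.10.9 for figures.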

Additional observations from a re-analysis of the deposited data

How the results depend on the processing

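No paired analysis was possible because each fraction gave 1 library, and for the same reason no replicate could be left out. Among 197 recomputed tests of named genes and tiles, 189 kept their side of the calling threshold, and of 46 reweighted differences, which have no test, 44 stayed within the 95% interval of the reported value. The Esrrb tile, the only one of them called, kept its direction but lost its call in all 3 recomputed tests that changed its reads. These were 1 CpG per 100 bp and each strand alone. The tests that kept the call, with no minimum difference and without the deepest 0.1%, left its reads unchanged at 21.4 points. Most of the others lay well under the 10 points needed for a call, so keeping their side says little. Of all 243 recomputed values, 36 had the opposite sign to the reported difference. All of these were at spans or promoters, where no difference was called, and several could come from the same gene. The values of Lin28b over its span were -5.95 points with at least 10 reads and -1.16 points with equal weights, and -1.03 points with Mantel-Haenszel weights, which were chosen after seeing the data. At Lin28b the promoter difference was 0.575 points at the less methylated gene end and -1.72 points in a window of 2 kb, and at Lin28a it was -1.74 points in that window. At Sox2 the 2-kb window gave 1.58 points (adjusted p 0.0103, Fisher's exact test). The Mycn span difference lost an adjusted p below 0.05 in most alternatives, with values up to 1 (Fisher's exact test). The Klf5 tile was called on the plus strand, at 15.6 points, and differed by 1.79 points on the minus strand (adjusted p 1, Fisher's exact test). The Esrrb tile had fewer than 3 CpGs at 10 reads or more and then gave no value.

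Counts of calls moved with coverage, CpG spacing and strand, all by Fisher's exact test. Called promoters numbered 95 of 15807 tested, against 41 of 12731 at 10 reads or more and 8 of 5313 at 20. They numbered 655 of 15807 with no minimum difference and 6 of 13860 with 1 CpG per 100 bp. On the plus strand they numbered 50 of 14731, in 500-bp windows 40 of 13835 and in 2-kb windows 228 of 17907. Called spans numbered 227 of 19763, against 3583 of 19763 with no minimum and 87 of 19485 with 1 CpG per 100 bp. On the plus strand 494 of 19224 spans were called, and on the minus strand 518 of 19222. For the 10 genes 2 spans passed with no minimum, against 0. Called tiles numbered 1571 of 584853, against 254 of 23680 at 20 reads and 98 of 371164 with 1 CpG per 100 bp. On the plus strand 805 of 414729 tiles were called, and on the minus strand 860 of 413498. Among the genes' tiles 1 of 186 was called, against 3 of 186 with no minimum, 0 of 74 at 10 reads and 0 of 19 at 20 reads. The count was also 0 of 128 with 1 CpG per 100 bp, 0 of 136 on the minus strand and 0 of 181 in 500-bp tiles. At an unadjusted p below 0.05 there were 20 such tiles in the original setting. Called cytosines numbered 75 of 6745376, against 153 of 2691781 at 10 reads and 176 of 500456 at 20. They numbered 177 of 6745376 with no minimum and 39 of 6738716 without the deepest 0.1%. With strands pooled 155 of 4489220 CpGs were called. The number tested changed with most settings, so a lower count need not be a lower share. The cause of these shifts was not tested. The median depth of 10 reads limits what a single cytosine can show.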
